A study of Mus musculus with 8 samples.

Results

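The MS4A genes encode a family of small membrane proteins that cross the membrane several times, and CD20, the product of Ms4a1, is the founding member. CD20 marks B cells and is the target of rituximab in human lymphoma, while Ms4a4b is a mouse T cell gene whose product associates with the costimulatory receptor GITR. In the mouse most of the family lies in a single cluster on chromosome 19, where the Ms4a4 and Ms4a6 subfamilies have expanded, and several members are also known from macrophages. The 7 genes described here are Ms4a4b, Ms4a4c, Ms4a4d, Ms4a6b, Ms4a6c, Ms4a6d and Ms4a1, taken by name from the array's probe annotation. Each had 1 transcript cluster with a single gene symbol, so 7 of 41034 clusters and 7 of 22180 named genes are described. The family is taken to have been chosen by its members' measured difference between CD45RBlow and CD45RBhigh cells in earlier results of these arrays. That difference is therefore described without a test for these genes, and the genotype comparisons are tested.

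The study took CD4+CD25- T cells from the spleens of CCR2-/- and wild-type C57BL/6 mice, sorted them into CD45RBlow and CD45RBhigh fractions, and stimulated both with plate-bound antibodies to CD3 and CD28. CCR2 is the receptor of the chemokine CCL2, and CD45RB is an isoform of the phosphatase CD45, abundant on naive T cells and reduced after antigen experience. The groups were CCR2-/- CD45RBlow, CCR2-/- CD45RBhigh, wild-type CD45RBlow and wild-type CD45RBhigh cells, with 2 arrays each. All mice were 6 to 8 weeks old, and all groups were stimulated, for 48 h per the sample protocols but 2 h per the series design. Which part of Ccr2 is deleted, and whether animals were pooled, is not given in the sources used here. The p-values reflect the spread among these arrays.

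On all arrays Cd4 had log2 values from 11.5 to 11.7, and the 7 CD4 T cell markers tested averaged 11.1 to 11.5. The replicate numbers differed in sex-linked genes in every group. Xist, the X-inactivation transcript of female cells, had log2 values of 4.45 to 5.02 on replicate 1 arrays and 11.7 to 12.1 on replicate 2 arrays, so the arrays of a group did not come from the same animals, although no label says which animals they came from. Values are given with the replicate 1 array first throughout. A bulk level cannot tell fewer cells of a type from less RNA per cell.

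The family members with the most similar upstream sequence are shown as a description of sequence. All 7 genes were lower in CD45RBlow cells, the contrast taken to have chosen them, so no link to expression is read from a pair. Promoter windows of 18 Ms4a genes were taken from RefSeq on GRCm38.p6, from 250 bases before to 50 bases after the start, and 5 of the 7 genes had one. The Ms4a4c window lies inside the gene, which RefSeq begins at 11404717, so the start used is not the outermost one. Among the 153 pairs of windows, Ms4a4b with Ms4a4c and Ms4a6b with Ms4a6c had the highest local alignment scores. The Ms4a4b and Ms4a4c windows matched at 229 of 301 aligned columns (76.1%), and those of Ms4a6b and Ms4a6c at 193 of 234 (82.5%). The other 151 pairs matched at 17 to 168 columns, with a median of 73. Capitals mark aligned runs of at least 8 identical bases within a pair, and all 4 windows lie on the plus strand.
Ms4a4b, chr19:11443308-11443607: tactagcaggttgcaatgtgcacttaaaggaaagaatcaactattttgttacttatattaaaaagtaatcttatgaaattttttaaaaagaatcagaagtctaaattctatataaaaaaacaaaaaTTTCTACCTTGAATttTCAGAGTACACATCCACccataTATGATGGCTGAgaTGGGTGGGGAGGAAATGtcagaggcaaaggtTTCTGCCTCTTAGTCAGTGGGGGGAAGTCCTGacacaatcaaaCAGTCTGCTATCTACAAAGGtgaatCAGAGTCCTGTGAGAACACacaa
Ms4a4c, chr19:11407411-11407710: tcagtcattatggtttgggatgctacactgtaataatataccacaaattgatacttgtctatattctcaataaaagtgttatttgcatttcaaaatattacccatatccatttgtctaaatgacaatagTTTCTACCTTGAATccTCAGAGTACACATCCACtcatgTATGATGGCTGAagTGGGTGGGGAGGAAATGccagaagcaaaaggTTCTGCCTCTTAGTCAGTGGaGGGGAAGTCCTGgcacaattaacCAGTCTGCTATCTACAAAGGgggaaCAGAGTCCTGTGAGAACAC
Ms4a6b, chr19:11518309-11518608: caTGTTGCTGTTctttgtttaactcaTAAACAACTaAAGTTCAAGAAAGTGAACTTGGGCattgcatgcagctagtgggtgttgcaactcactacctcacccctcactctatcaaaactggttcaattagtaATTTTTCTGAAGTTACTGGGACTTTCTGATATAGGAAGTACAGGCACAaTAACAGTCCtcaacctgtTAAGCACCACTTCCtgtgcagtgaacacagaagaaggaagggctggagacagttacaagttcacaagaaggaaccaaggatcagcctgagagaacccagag
Ms4a6c, chr19:11469118-11469417: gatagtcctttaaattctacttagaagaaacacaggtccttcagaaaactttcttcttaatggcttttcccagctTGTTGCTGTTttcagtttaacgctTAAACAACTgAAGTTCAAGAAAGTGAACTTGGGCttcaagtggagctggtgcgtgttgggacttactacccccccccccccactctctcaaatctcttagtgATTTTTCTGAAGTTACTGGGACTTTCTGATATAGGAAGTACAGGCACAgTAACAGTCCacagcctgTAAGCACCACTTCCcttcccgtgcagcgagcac

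In the Ms4a4b and Ms4a4c windows the shared runs lie in the part next to the start. In the Ms4a6b and Ms4a6c windows they include a run of 48 identical bases. The windows were searched on both strands for GAAANNGAA, the spaced pair of an interferon-response element, which was found in the windows of Ms4a6b and Ms4a6c and in 8.53% of 32544 mouse promoter windows. The match, GAAAGTGAA, begins 206 bases before the start of Ms4a6b and 133 bases before that of Ms4a6c, inside a shared run. AGGAAGT, an ETS core with flanking bases, was in the windows of the same genes, at 86 and 43 bases before the start of Ms4a6b and 17 before that of Ms4a6c, and in 9.27% of all windows. TTCNNNGAA, the interferon gamma activated sequence, was in none of the 5 windows and in 8.33% of all windows. These are letter matches and not measured binding sites.

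Ms4a4b had the widest subset difference of the family. Its log2 values were 4.24 and 4.64 in CCR2-/- CD45RBlow cells and 4.17 and 4.27 in wild-type CD45RBlow cells, against 8.62 and 7.35 in CCR2-/- CD45RBhigh cells and 7.14 and 6.13 in wild-type CD45RBhigh cells. Every CD45RBlow array lay below every CD45RBhigh array, with 1.49 log2 units between the nearest arrays. Averaged over the genotypes the difference was -2.98 (standard error 0.32), 7.89-fold lower in CD45RBlow cells. In 3 of the 4 CD45RBlow arrays the value lay under that array's 40th percentile of all clusters, the limit used here for dim genes, so the low end of this difference is near the floor of the arrays.

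Ms4a4c, the neighbour with the similar promoter window, followed the same order of groups. It had log2 values of 4.34 and 4.41 in CCR2-/- CD45RBlow cells and 4.05 and 4.17 in wild-type CD45RBlow cells, against 7.66 and 5.70 in CCR2-/- CD45RBhigh cells and 5.86 and 5.52 in wild-type CD45RBhigh cells. The subsets did not overlap, and all 4 CD45RBlow arrays were under the 40th percentile. The averaged difference was -1.94 (standard error 0.37), with its low end near the floor. Between the CCR2-/- CD45RBhigh arrays, replicate 2 minus replicate 1 was -1.96, the widest spread within a group among the 7 genes.

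Ms4a4d differed by -0.61 (standard error 0.13) between subsets. It had 4.32 and 4.75 in CCR2-/- CD45RBlow cells and 4.45 and 4.51 in wild-type CD45RBlow cells, against 4.97 and 5.25 in CCR2-/- CD45RBhigh cells and 5.31 and 4.96 in wild-type CD45RBhigh cells. All CD45RBhigh arrays lay above all CD45RBlow arrays, by at least 0.21, and the genotypes overlapped in both subsets.

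The Ms4a6 genes were above the 40th percentile on 7 or 8 of the 8 arrays. Ms4a6b, another member known from mouse T cells, had 10.32 and 10.72 in CCR2-/- CD45RBlow cells and 10.39 and 10.51 in wild-type CD45RBlow cells, against 11.40 and 11.01 in CCR2-/- CD45RBhigh cells and 11.81 and 11.14 in wild-type CD45RBhigh cells. Far from the floor on every array, it differed by -0.86 (standard error 0.18), which is 1.81-fold lower in CD45RBlow cells. Ms4a6c had 5.88 and 5.76 in CCR2-/- CD45RBlow cells and 6.08 and 6.15 in wild-type CD45RBlow cells, against 7.57 and 6.46 in CCR2-/- CD45RBhigh cells and 6.83 and 6.97 in wild-type CD45RBhigh cells, a difference of -0.99 (standard error 0.22). Neither gene overlapped between subsets.

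Ms4a6d, known from macrophages, where its product pairs with the complement receptor VSIG4 in mice, had 4.56 and 4.93 in CCR2-/- CD45RBlow cells and 4.29 and 4.77 in wild-type CD45RBlow cells. In CD45RBhigh cells it had 5.61 and 5.41 in CCR2-/- and 6.29 and 5.59 in wild type. The subsets did not overlap, and the averaged difference was -1.09 (standard error 0.19), 2.12-fold lower in CD45RBlow cells.

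The B cell gene Ms4a1 differed by -0.46 (standard error 0.17) between subsets when averaged over genotypes. Its log2 values were 4.13 and 4.21 in CCR2-/- CD45RBlow cells and 4.22 and 4.21 in wild-type CD45RBlow cells, against 5.18 and 4.41 in CCR2-/- CD45RBhigh cells and 4.67 and 4.34 in wild-type CD45RBhigh cells. Only the replicate 1 arrays of the CD45RBhigh groups exceeded the 40th percentile, and the nearest arrays of the subsets were 0.12 apart. Its difference was -0.63 in CCR2-/- and -0.29 in wild type, with all CD45RBlow arrays under the 40th percentile. The averages of Ms4a1 and Ms4a4d changed order when replicate 2 of CCR2-/- CD45RBhigh was left out, to -0.65 for Ms4a1 and -0.54 for Ms4a4d.

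**Figure D1:**
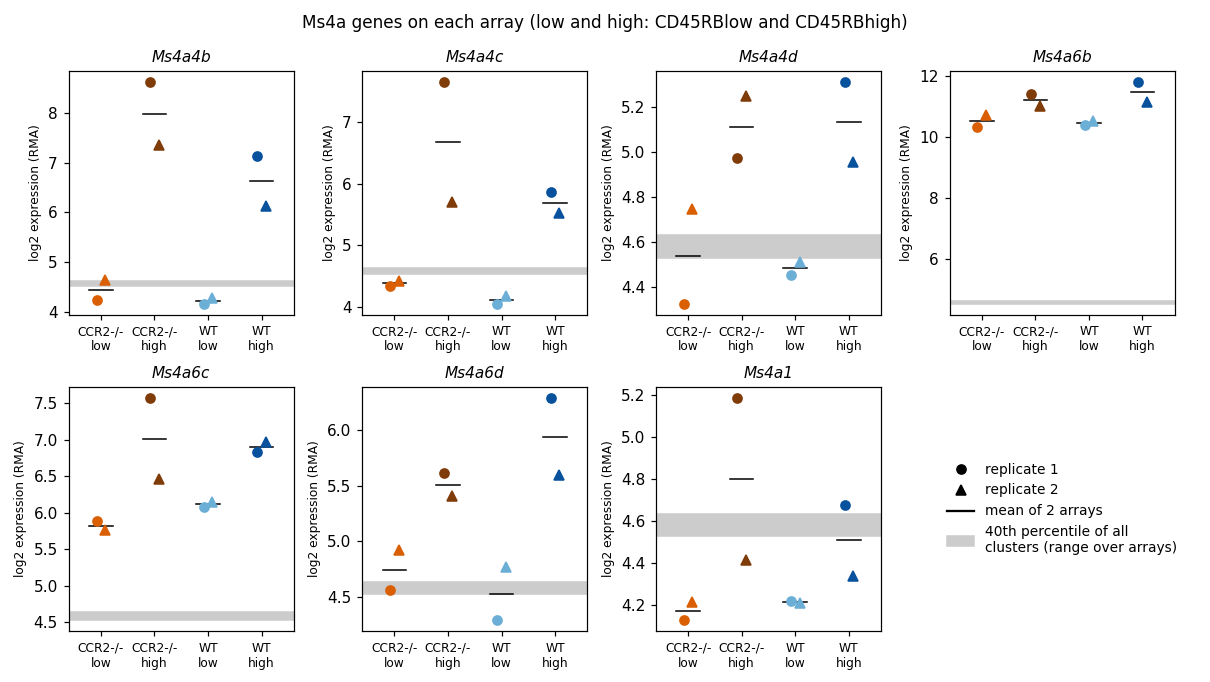
Log2 expression of the 7 Ms4a genes (vertical axes, a separate scale per gene) on each of the 8 arrays, by genotype and CD45RB subset. Points are arrays, lines are means of 2 arrays, and the grey band is the 40th percentile of all clusters over the arrays. In every panel the CD45RBlow arrays sit below the CD45RBhigh arrays of both genotypes, and Ms4a1 stays under the band on 6 of 8 arrays.

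All 7 genes passed the filter on dim genes, 4 of them (Ms4a4b, Ms4a4c, Ms4a4d and Ms4a1) on the strength of the CD45RBhigh arrays. All 7 lay below in CD45RBlow cells with no overlap of arrays, as did 8.13% of the 13508 genes tested. In limma's fit 1.93% of all genes were called lower at an adjusted p under 0.05, while 1.1% were higher and 3.03% changed in all. Which of the 7 genes were called, and how many, is not given, since the same contrast is taken to have chosen them. Within wild type 0.0888% of all genes were called, and within CCR2-/- 0.333%. With the replicate number as a block, 758 of all genes were called in the averaged comparison in place of 409. The median averaged difference was -0.99 over the 7 genes and -0.01 over all genes tested.

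The genotype comparison asked whether loss of CCR2 altered the family's transcripts. None of the 7 genes passed limma's test between CCR2-/- and wild-type cells in either subset, nor did any other gene (0.0% of 13508, with or without the replicate block). At an unadjusted p under 0.05, 354 genes (2.62%) differed in CD45RBhigh cells and 298 genes (2.21%) in CD45RBlow cells. The 95% intervals given with each gene show the range of genotype effects these arrays allow in the fit without the replicate block. For Ms4a4b in CD45RBhigh cells the standard error was 0.448 in that fit and 0.398 with the block.

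Ms4a4b was the single member with a limma p under 0.05 before adjustment. It averaged 7.99 ± 0.90 in CCR2-/- CD45RBhigh cells and 6.63 ± 0.71 in wild-type CD45RBhigh cells (SD, n = 2 each). The log2 difference was 1.35 with a 95% interval of 0.30 to 2.40 (limma adjusted p = 1). It was 0.72 without CCR2-/- CD45RBhigh replicate 1, 0.85 without wild-type CD45RBhigh replicate 2, and 1.99 without CCR2-/- CD45RBhigh replicate 2. Averaged over the subsets it was 0.79 (0.04 to 1.53, limma adjusted p = 0.940). That interval counts the CD45RBlow and CD45RBhigh arrays as independent samples, although whether they share animals is not given. Ms4a4b was again the single member under 0.05 before adjustment, as were 3.86% of all genes. In CD45RBhigh cells it was higher in CCR2-/- cells by 1.49 in replicate 1 and by 1.22 in replicate 2, and the genotypes did not overlap, as in 15.2% of all genes with CCR2-/- higher. None of the 7 had both CCR2-/- arrays below both wild-type arrays there, as 11.2% of all genes did. In CD45RBlow cells it averaged 4.44 ± 0.29 in CCR2-/- and 4.22 ± 0.07 in wild type (SD, n = 2 each), and the genotypes overlapped. The order of its group levels was therefore CCR2-/- CD45RBhigh, wild-type CD45RBhigh, CCR2-/- CD45RBlow and wild-type CD45RBlow, with no separation of the last pair.

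Ms4a4c in CD45RBhigh cells averaged 6.68 ± 1.39 in CCR2-/- and 5.69 ± 0.24 in wild type (SD, n = 2 each). The difference was 0.99 with an interval of -0.25 to 2.22 (limma adjusted p = 1). Its genotypes overlapped there, with a gap of 1.80 in replicate 1 and 0.18 in replicate 2. The difference was 0.01 without CCR2-/- CD45RBhigh replicate 1 and 1.97 without CCR2-/- CD45RBhigh replicate 2. In CD45RBlow cells both CCR2-/- arrays lay above both wild-type arrays, as in 18.7% of genes, at levels under the 40th percentile and with a difference of 0.27 (interval -0.97 to 1.51, limma adjusted p = 0.9998).

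The intervals of the remaining T cell members between genotypes in CD45RBhigh cells span 0. Ms4a6d was at -0.43 (-1.05 to 0.18), Ms4a6b at -0.27 (-0.85 to 0.31), Ms4a6c at 0.11 (-0.62 to 0.84) and Ms4a4d at -0.02 (-0.46 to 0.42). In CD45RBlow cells Ms4a6c was lower on both CCR2-/- arrays than on both wild-type arrays, as in 11.8% of genes, with a difference of -0.29 (-1.02 to 0.43). Apart from Ms4a4c and Ms4a6c, the members overlapped between genotypes there. Ms4a1 differed by 0.29 (-0.27 to 0.85) in CD45RBhigh cells and by -0.04 (-0.60 to 0.52) in CD45RBlow cells.

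**Figure D2:**
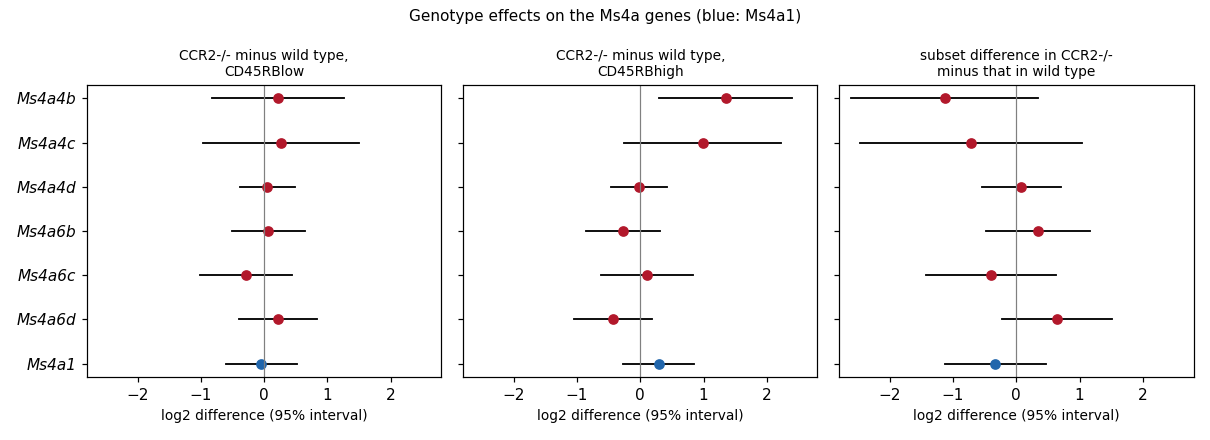
Log2 differences between CCR2-/- and wild-type cells (horizontal axes) for the 7 Ms4a genes in CD45RBlow cells, in CD45RBhigh cells, and the difference between genotypes in the subset effect, with limma 95% intervals as lines. The interval of Ms4a4b in CD45RBhigh cells, 0.30 to 2.40, is the only one of the 21 that does not cross 0. The intervals are not adjusted for the number of comparisons, and none of these values passed limma's test after adjustment.

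Whether the subset difference depended on genotype was tested as an interaction. No gene passed (0.0% of 13508), and 160 genes (1.18%) had a limma p under 0.05 before adjustment, none of them among the 7. The subset difference of Ms4a4b was -3.55 on the log2 scale in CCR2-/- and -2.41 in wild type, which differ by -1.13 (interval -2.62 to 0.35, limma adjusted p = 0.9998). For Ms4a4c the subset differences were -2.30 in CCR2-/- and -1.58 in wild type, which differ by -0.72 (-2.47 to 1.03). That value turned to 0.26 without CCR2-/- CD45RBhigh replicate 1. Ms4a6d was at -0.76 in CCR2-/- and -1.41 in wild type, with an interaction interval of -0.22 to 1.52. Ms4a6b was at -0.69 in CCR2-/- and -1.02 in wild type, with an interval of -0.48 to 1.16.

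The genotype effects of the 6 T cell members were also set against that of Ms4a1, averaged over the subsets. Ms4a1 was under the 40th percentile on 6 of 8 arrays, so its own effect of 0.12 is that of a gene near the floor. Ms4a4b exceeded Ms4a1 by 0.66 and Ms4a4c by 0.50 on the log2 scale, and the other members lay -0.23 to -0.11 from it. With genotype labels rearranged within subsets, the exact permutation p was 0.0556, two-sided, for Ms4a4b and for Ms4a4c (0.167 after Benjamini-Hochberg adjustment over 6 tests), and 0.222 to 0.889 for the others. With labels swapped only within replicate numbers, a choice made after seeing the data, the exact permutation p was 0.125 for Ms4a4b and for Ms4a4c. These are the smallest values that 36 and 16 arrangements allow, so neither scheme can reach 0.05. Both schemes relabelled CD45RBlow and CD45RBhigh arrays separately, as if the fractions came from different animals. Whether they did is not given, and replicate deviations correlated between all groups (0.109 to 0.531). If fractions shared animals, these p-values overstate the evidence, so no genotype effect is read from them.

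Position in the genome was no part of the choice by name. RefSeq lists 21 Ms4a genes on chromosome 19. Protein-coding genes in the order Ms4a4a, Ms4a4c, Ms4a4b, Ms4a6c, Gm8369, Ms4a6b, Ms4a4d and Ms4a6d form a stretch of 8 that contains all 7 genes but Ms4a1; its ends were set after the values were seen. The averaged differences of these 8 ran from -2.98 to -0.61, a description only, since this contrast chose 6 of them. The other 27 tested genes of the cluster and of its neighbourhood within 500 kb, Ms4a1 set aside, lay between -0.71 (Slc15a3, limma adjusted p = 0.541) and 0.50 (Ccdc86, limma adjusted p = 0.175).

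The genes inside the stretch that are not among the 7 are Gm8369 and Ms4a4a. Gm8369, a gene between Ms4a6c and Ms4a6b, fell by 1.15 on the log2 scale in CD45RBlow cells (limma adjusted p = 0.0271). Its values were 8.74 and 9.06 in CCR2-/- CD45RBlow cells and 8.43 and 8.84 in wild-type CD45RBlow cells, against 10.28 and 9.70 in CCR2-/- CD45RBhigh cells and 10.1 and 9.59 in wild-type CD45RBhigh cells. Ms4a4a, whose human counterpart is a macrophage gene, differed by -1.38 (interval -2.35 to -0.42) and did not pass limma's test (adjusted p = 0.131), but passed with the replicate block (adjusted p = 0.0471). It had 4.76 and 4.84 in CCR2-/- CD45RBlow cells and 4.90 and 4.66 in wild-type CD45RBlow cells, against 6.98 and 5.72 in CCR2-/- CD45RBhigh cells and 6.90 and 5.09 in wild-type CD45RBhigh cells.

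Of 15 other family genes on the array, counting the related Tmem176a and Tmem176b, 7 passed the filter and 0 were called by limma between subsets or genotypes, while 1 (Ms4a4a) was called between subsets with the block. Ms4a2, the beta chain of the IgE receptor of mast cells, differed by -0.16 (limma adjusted p = 0.466), and Ms4a7, Ms4a13 and Ms4a15 by 0.01 to 0.09. Ms4a3, a gene of myeloid progenitors, stayed under the 40th percentile on all arrays, as did 6 more. Tmem176a and Tmem176b, on another chromosome, were higher in CD45RBlow cells by 0.51 and 0.32 without passing (limma adjusted p = 0.324 and 0.434). The T cell surface genes Cd5 and Cd6, near the cluster, differed by 0.00 and 0.21 (limma adjusted p = 0.998 and 0.353), so among the 24 tested neighbours outside the family 1 was lower (Gm8369) and 0 were higher.

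**Figure D3:**
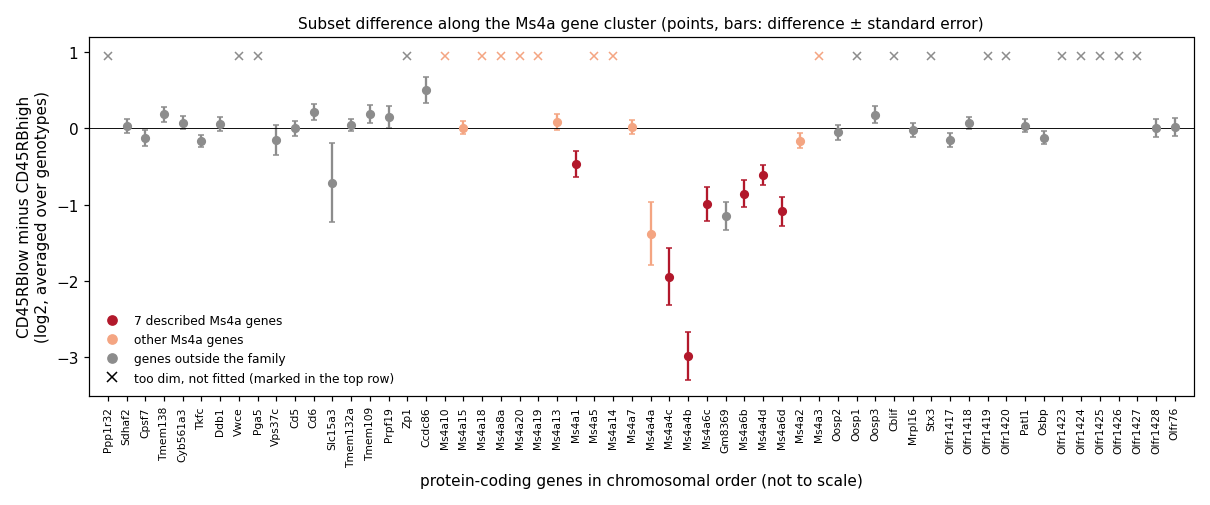
Averaged difference between CD45RBlow and CD45RBhigh cells (log2, vertical axis, with standard errors as bars) for protein-coding genes in chromosomal order around the Ms4a cluster. Crosses in the top row are genes too dim to be fitted. The stretch from Ms4a4a to Ms4a6d lies between -2.98 and -0.61, and outside it the values include Slc15a3 at -0.71, Ms4a1 at -0.46 and Ccdc86 at 0.50.

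Over the 8 arrays, which share the subset split, Pearson's r between 2 members ran from 0.58 to 0.98 over 21 pairs, highest for Ms4a6b with Ms4a6d and 0.97 for Ms4a4b with Ms4a4c. In CD45RBhigh cells most members were lower in replicate 2 than in replicate 1. Replicate 2 minus replicate 1 was -1.28 in CCR2-/- and -1.01 in wild type for Ms4a4b, and -1.96 in CCR2-/- and -0.34 in wild type for Ms4a4c. Exceptions were Ms4a4d in CCR2-/- (0.27) and Ms4a6c in wild type (0.14).

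Of 25 interferon-response genes, 25 were higher in replicate 2 than in replicate 1 of the CCR2-/- CD45RBhigh group and 23 in the wild-type CD45RBhigh group, the exceptions being Ifit3 and Oas2. Their mean was 6.14 and 6.44 in CCR2-/- CD45RBlow cells and 6.06 and 6.25 in wild-type CD45RBlow cells, against 6.42 and 8.41 in CCR2-/- CD45RBhigh cells and 7.28 and 8.03 in wild-type CD45RBhigh cells, replicate 1 first. The subset gap of this list was -0.28 in CCR2-/- replicate 1, where that of Ms4a4b was -4.39, and -1.98 in CCR2-/- replicate 2, where that of Ms4a4b was -2.71. In wild type the list gaps were -1.21 and -1.79 in replicates 1 and 2, beside -2.97 and -1.85 for Ms4a4b. Of the 25 genes, 2 (Trim30a, -1.84, and Oas2, -0.63) were lower by limma and 0 higher, and 9 were lower with the block. The list's median averaged difference was -1.36. The median of all clusters was 4.95 and 5.05 on the CCR2-/- CD45RBhigh arrays and 4.95 on both wild-type CD45RBhigh arrays. The share of all genes higher in either replicate was not computed, so the replicate counts of a list have no background beside them.

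Of 7 tested B cell markers, 7 were higher in replicate 1 than in replicate 2 of the CCR2-/- CD45RBhigh group and 6 in the wild-type CD45RBhigh group, the exception being Ighm. Their mean was 5.52 and 5.52 in CCR2-/- CD45RBlow cells and 5.46 and 5.62 in wild-type CD45RBlow cells, against 6.75 and 5.77 in CCR2-/- CD45RBhigh cells and 6.41 and 5.70 in wild-type CD45RBhigh cells, replicate 1 first. The CD45RBhigh replicate 1 arrays were the highest for this mean, as for Ms4a1. Over 8 arrays the mean correlated with Ms4a1 at r = 0.97, and with the 6 T cell members at 0.62 (Ms4a4d) to 0.91 (Ms4a4c). The interferon-response mean correlated with Ms4a1 at r = 0.11, and with the 6 T cell members at 0.36 (Ms4a4c) to 0.78 (Ms4a4d). Ms4a4d was the single member closer to the interferon-response mean than to the B cell mean. Cd79a, a signalling chain of the B cell receptor, was among the 5 genes most like Ms4a1 over the 8 arrays (r = 0.98), with Nsg2 (0.99), Fry (0.99), Dleu7 (0.98) and 1700123M08Rik (0.98). Like Ms4a1, Cd79a reached the 40th percentile on 2 arrays only, the replicate 1 arrays of the CD45RBhigh groups. Dleu7 also stayed near the floor, at 4.24 to 4.87. Pax5, Blk, Cr2 and Fcrla were under the 40th percentile on all arrays. Ighm, the immunoglobulin mu chain, was the single B cell marker that passed, at -1.03 (limma adjusted p = 0.0128), and 2 were lower with the block.

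In the replicate 2 arrays the B cell mean differed by -0.25 in CCR2-/- and -0.08 in wild type between subsets, over markers that went both ways. Beside it Ms4a4b differed by -2.71 in CCR2-/- and -1.85 in wild type, and Ms4a4c by -1.29 in CCR2-/- and -1.35 in wild type. The remaining T cell members had smaller gaps in replicate 2. In CCR2-/- they were -0.30 for Ms4a6b, -0.48 for Ms4a6d, -0.50 for Ms4a4d and -0.70 for Ms4a6c. In wild type they were -0.63 for Ms4a6b, -0.83 for Ms4a6d, -0.44 for Ms4a4d and -0.82 for Ms4a6c. Ms4a1 differed by -0.20 in CCR2-/- and -0.13 in wild type there, and by -1.06 in CCR2-/- and -0.46 in wild type in replicate 1. In replicate 2 Ighm was at 9.64 in CD45RBlow against 10.82 in CD45RBhigh cells of CCR2-/-, and at 9.93 against 11 in wild type. Ebf1 went the other way there, at 5.31 against 4.47 in CCR2-/- and 5.23 against 4.59 in wild type. Averaged over genotypes and replicates, 6 of the 7 B cell markers had a negative subset difference and 1, Ebf1, a positive one (0.38). The part of B cells in the members' values was not tested.

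Markers of myeloid cells were checked because Ms4a4a, Ms4a6c and Ms4a6d are known from macrophages. Csf1r, Adgre1, Cd14, Lyz2, Itgam and Clec4a2 were under the 40th percentile on all arrays, 6 of 12 macrophage and monocyte markers. The 6 that were tested averaged 5.62 to 5.64 in CCR2-/- CD45RBlow cells, 6.47 to 6.62 in CCR2-/- CD45RBhigh cells, 5.66 in wild-type CD45RBlow cells and 6.35 to 6.49 in wild-type CD45RBhigh cells. Their subset gaps were -0.97 and -0.85 in CCR2-/- and -0.82 and -0.69 in wild type for replicates 1 and 2. This mean joins markers that moved in opposite directions between the replicates of the CD45RBhigh groups. Mpeg1 rose from 4.63 to 7.06 in CCR2-/- and from 5.29 to 7.19 in wild type, replicate 1 first. Ly86 fell from 6.37 to 4.92 in CCR2-/- and from 5.685 to 4.79 in wild type. Cybb fell from 5.65 to 4.82 in CCR2-/- and from 6.15 to 4.89 in wild type. Ctss, encoding cathepsin S, was the single one of the 6 that passed (-1.23, limma adjusted p = 0.0096), and 2 were lower with the block. The part of macrophages and monocytes in the result was not tested. Of 3 tested dendritic cell markers Naaa was lower (-0.73, limma adjusted p = 0.0286), while Itgax, Flt3, Xcr1 and Siglech were under the 40th percentile throughout. The NK markers Klrd1 and Eomes (-0.31 and -0.39, limma adjusted p = 0.300 and 0.0883) and the CD8 markers Cd8a and Cd8b1 (-0.18 and -0.92, limma adjusted p = 0.463 and 0.0776) did not pass, although Cd8b1 passed with the block.

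**Figure D4:**
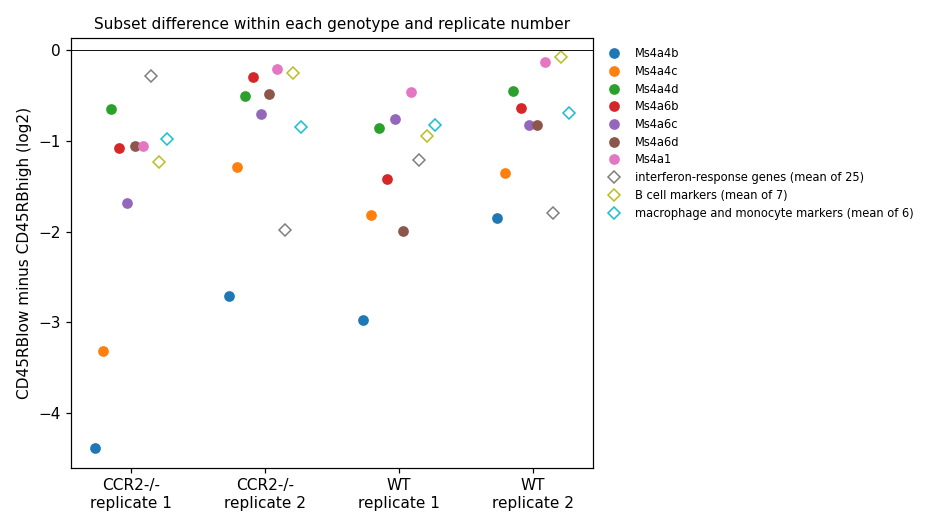
Subset difference (CD45RBlow minus CD45RBhigh, log2, vertical axis) of the 7 Ms4a genes (filled) and of the means of 3 gene lists (open) within each genotype and replicate number. Ms4a4b runs from -4.39 to -1.85, and the interferon-response mean is nearest to 0 in CCR2-/- replicate 1. The B cell mean is -0.25 in CCR2-/- and -0.08 in wild type in replicate 2, over markers that went both ways. The macrophage and monocyte mean joins markers that moved in opposite directions between replicates.

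T cell genes outside the family were set beside Ms4a4b. Of 13 naive T cell genes 4 were lower in CD45RBlow cells by limma and 0 higher, beside 1.93% lower and 1.1% higher of all genes. The 4 were Dapl1 (-1.53), the homing receptor Ccr7 (-0.94), Actn1 (-0.88) and Klf3 (-0.80). The median of the 13 was -0.09, with 8 negative and 5 positive values, among them Lef1 at -0.10 and Bach2 at 0.23. The T cell adaptor gene Trat1 was the single CD4 T cell marker of 7 that passed, at -1.92 (limma adjusted p = 0.0150). Tnfrsf18, which encodes GITR, differed by -0.16 between subsets (interval -0.32 to 0.00, limma adjusted p = 0.291) and by 0.10 between genotypes in CD45RBhigh cells (adjusted p = 1). Its values were 10.89 to 10.95 on the CD45RBlow arrays and 11 to 11.12 on the CD45RBhigh arrays. The 5 genes most like Ms4a4b over the 8 arrays were Als2cl (r = 0.99), Dguok, the mitochondrial deoxyguanosine kinase (0.99), 4833407H14Rik (0.99), Pigv (0.98) and Fbh1 (0.98).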

How the data were processed

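Each sample was hybridised to a single-colour Affymetrix whole-transcript array from 200 ng of total RNA, per the labels' protocols. The deposited values are log2 expression per transcript cluster. The submitters' processing notes name RMA and Partek, with versions and options not given in the sources used here. Probe sequences were not used here, so cross-hybridisation between similar Ms4a transcripts was not tested. Precision is limited by the number of arrays, as intensities carry no depth.

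Of 41034 clusters, 23521 had exactly 1 symbol in the platform annotation, and 1814 with several were not used. A gene was represented by its brightest cluster. A gene was tested (13508 were) when 2 or more arrays put it no lower than their own 40th percentile. Limma 3.58.1 in R 4.3.3 fitted a mean for each of the 4 groups over all 8 arrays, with Benjamini-Hochberg adjustment over all genes tested and a threshold of 0.05. Differences are CCR2-/- minus wild type and CD45RBlow minus CD45RBhigh. The median standard error was 0.145 for a genotype effect in CD45RBhigh cells. The fit was tested on simulated data.

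Replicate deviations correlated across genes between every 2 groups (6 correlations, 0.109 to 0.531, all over 0.1). The replicate number was therefore fitted as a block, which pairs the samples, but only as an alternative. Standard errors, intervals and limma p-values are from the fit without the block unless the block is named. Blocked values stand where they change a call, apart from subset calls of the 7 genes. Alternatives were no filter, a filter at the 60th percentile, all clusters, median-centred arrays, array weights, the block, and leaving out each array. The members and gene lists were chosen with earlier results of these data known. Named genes were the 7 members, the other family genes, the called genes of each list or its smallest p, and the 5 genes closest in Pearson's r to Ms4a4b and to Ms4a1. Slc15a3, Ccdc86, Cd5, Cd6, Xist and the markers listed as dim were named after their values were seen.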

Additional observations from a re-analysis of the deposited data

How the results depend on the processing

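No genotype or interaction value of the 7 genes passed limma's test under any alternative run (380 values, lowest adjusted p = 0.0761, for Ms4a4c in CD45RBhigh cells with an array left out). Their subset differences kept their direction in all 285 alternative values. Averaged over genotypes, 3 members were called between subsets, 5 with arrays centred on their medians, 6 with the replicate block, and 0 to 6 with an array left out. In wild type 0 were called, 1 with array weights, and 0 to 2 with an array left out (2 without either CCR2-/- CD45RBhigh array). In CCR2-/- cells 1 was called, 0 without a filter on dim genes, 0 with array weights, and 0 to 3 with an array left out (3 without CCR2-/- CD45RBhigh replicate 2). Nothing is read from these member counts, since the contrast between subsets is taken to have chosen the genes. The block changed no genotype call. Ms4a1, Ms4a4d and Ms4a6d gave no value under the filter at the 60th percentile.

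Some genotype and interaction values turned. With arrays centred on their medians Ms4a4d was at -0.037 averaged over subsets and -0.002 in CD45RBlow cells. With an array left out, the effect averaged over subsets ranged over -0.091 to 0.119 for Ms4a4d, -0.270 to 0.065 for Ms4a6b, -0.370 to 0.188 for Ms4a6c, -0.282 to 0.065 for Ms4a6d and -0.068 to 0.317 for Ms4a1. In CD45RBhigh cells it ranged over -0.202 to 0.154 for Ms4a4d, -0.607 to 0.064 for Ms4a6b, -0.446 to 0.670 for Ms4a6c and -0.093 to 0.677 for Ms4a1. In CD45RBlow cells it ranged over -0.159 to 0.263 for Ms4a4d, -0.131 to 0.265 for Ms4a6b and -0.021 to 0.452 for Ms4a6d. For Ms4a4b the effect ranged over 0.467 to 1.105 averaged over subsets and 0.715 to 1.991 in CD45RBhigh cells, and for Ms4a4c over 0.007 to 1.966 in CD45RBhigh cells. The interaction ranged over -1.697 to 0.263 for Ms4a4c, -0.135 to 0.287 for Ms4a4d, -0.964 to 0.152 for Ms4a6c and -0.720 to 0.051 for Ms4a1. A group left with 1 array was assumed to vary like the others. Over all genes, the averaged subset count was 409, and 421 with centred arrays and 758 with the block. The wild-type count was 12, and 24 with centred arrays, 116 with weights and 104 with the block. The CCR2-/- count was 45, and 83 with centred arrays, 7 with weights and 196 with the block. The causes were not tested. Values near the 40th percentile limit the low end of the Ms4a4 and Ms4a1 differences.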
